A study of Mus musculus with 6 samples.

Results

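Spermatogonial differentiation was examined through 9 genes, which were Kit, Sohlh1, Sohlh2, Dmrt1, Dmrtb1, Rara, Rarg, Neurog3 and Upp1. They were taken by symbol from a count table of 32285 genes, and all 9 had enough reads to be tested among 15104 genes. The samples were germline stem (GS) cells, cultured mouse spermatogonia with stem cell activity, which had been established from neonatal testes. The labels give the strain as DBA/2 and the genotype as DBA/Tg14(act-EGFP-OsbY01), and per the methods this EGFP transgene came from C57BL6 mice and was crossed into DBA/2. GS cells were grown on mouse embryonic fibroblasts with GDNF and FGF2, so RNA of feeder cells could be present. All vials were frozen for 6 months, those of the Space group aboard the International Space Station and those of the Ground group on Earth, and RNA was taken on the day after thawing. Each group had 3 RNA-seq libraries, Space-1 to Space-3 and Ground-1 to Ground-3. The groups follow the sample titles, and the treatment label of all 6 samples says the opposite, so each direction below would change sign if that label were right. The study speaks of 3 lines for each condition but no label ties a library to a line, and p-values therefore measure only the spread between these samples, which may be technical.

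In the testis, stem and progenitor spermatogonia leave the undifferentiated state in response to retinoic acid. The signal is read by nuclear receptors such as RARA and RARG, and the cells then gain the receptor tyrosine kinase KIT and the transcription factors SOHLH1 and SOHLH2. DMRT1 and DMRTB1 act on the order of these steps and on the later switch from mitosis to meiosis. GS cells are kept by their growth factors in a state close to undifferentiated spermatogonia, but the cultures are mixtures and contain cells at several steps.

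None of the 9 regulators passed the test between Space and Ground GS cells (0 of 9 past an adjusted p of 0.05 in edgeR's quasi-likelihood test, where 0% of all tested genes passed). The edgeR adjusted p was 0.9999 for each of the 9, and log2 fold changes are given as Space minus Ground throughout. In none of them did the 3 Space libraries lie all above or all below the 3 Ground libraries, a separation seen in 3.59% of tested genes, with Space higher in 1.61% and lower in 1.98%. Libraries of the same group did not have equal levels, given here as CPM, read counts relative to the library size after TMM scaling. Dmrt1, Sohlh2, Rarg and Rara had their 2 highest values in Ground-3 and Space-1, while Kit and Sohlh1 had their 2 lowest values in those libraries. Genes with Ground-3 and Space-1 as the 2 highest libraries made up 23.5% of those tested, and genes with them as the 2 lowest made up 23.5%, so that 4 of 9 and 2 of 9 regulators are to be read against a pattern common in the whole table. The plot of CPM by library shows both features.

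**Figure D1:**
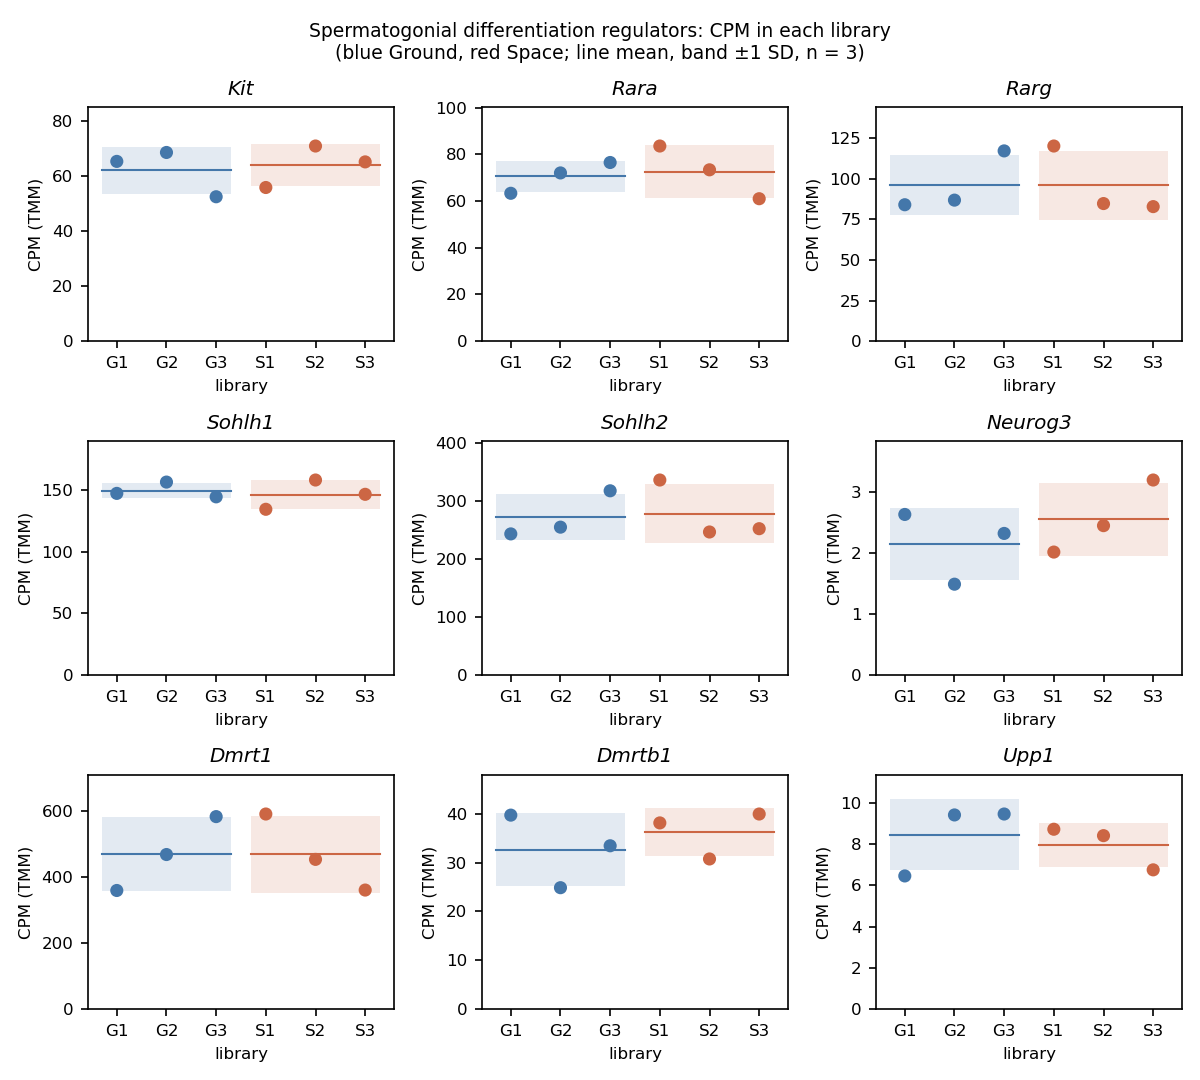
CPM (read counts scaled by TMM library size) of each regulator on the y axis, from 0, in the 6 libraries on the x axis (G1 to G3 Ground, S1 to S3 Space; points are libraries, lines group means, bands ±1 SD, n = 3). Every pair of bands overlaps, and Dmrt1 reaches 582 and 589 CPM in G3 and S1 against 358 to 467 in the other 4 libraries.

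The libraries held between 19015985 and 24110916 counts, and 3 counts, taken as the floor of detection, corresponded to 0.120 to 0.160 CPM. Mitochondrial transcripts took 2.51% to 11.5% of the counts. The germ cell genes Ddx4 and Dazl, an RNA helicase and an RNA-binding protein of germ cells, were at 376 to 422 CPM and 782 to 964 CPM, and the summed level of 12 germ cell genes lay between 3819 and 3979 CPM. Of 24 fibroblast markers, 23 were lower in Space and 0 passed the test. An unadjusted p under 0.05 was found for 6 of the 24, all lower in Space, beside 0.45% of all tested genes, and 4 of the 24 had every Space library below every Ground library, beside 1.98%. Their median log2 fold change was -0.32, with summed levels of 1286 to 1306 CPM in Ground and 1030 to 1295 CPM in Space.

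KIT is the receptor for stem cell factor and a surface marker gained by differentiating spermatogonia. Kit (ENSMUSG00000005672, chromosome 5, 75574916 to 75656722, positions on GRCm38, the assembly of mm10) had 65.3, 68.6 and 52.5 CPM in the Ground libraries and 55.8, 70.9 and 65.2 CPM in the Space libraries, each in the order of replicate numbers. The lowest values of the gene were in Ground-3 and Space-1, 1 library of each group, and the groups overlapped. The means of 62.1 ± 8.52 CPM in Ground and 64.0 ± 7.61 CPM in Space (SD, n = 3) differed by 0.042 on the log2 scale (SE 0.12), and the 95% interval of the Space to Ground ratio ran from 0.845 to 1.25. In these bulk samples, fewer Kit-expressing cells and less Kit RNA per cell cannot be told apart.

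Markers of mast cells and Leydig cells, which also use KIT, were low in the libraries. Of 6 mast cell markers, 4 had 0 counts in all libraries, and the single one past the filter on low counts, Hdc, lay between 0.658 and 1.61 CPM. Of 6 Leydig cell markers, Hsd3b1 and Lhcgr had 0 counts, Cyp17a1 had 1 count in all and only Star passed the filter, at 3.95 to 5.04 CPM. Kitl, which encodes the ligand of KIT and is made by somatic cells, had 1.40, 1.44 and 0.307 CPM in Ground and 0.700, 1.17 and 0.920 CPM in Space. The ligand thus stood close to the floor of detection in Ground-3 and varied 4.68-fold over the libraries, and it did not pass the test (log2 fold change -0.17, SE 0.54).

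The Kit signalling list comprised 28 genes that carry the signal through PI3 kinase, AKT, mTOR and MAP kinases. All 28 were tested and 0 passed, with 18 higher and 10 lower in Space and a median log2 fold change of 0.010, beside -0.0020 for all genes tested. Mtor, the growth kinase, had 381.5 ± 33.4 CPM in Ground and 394 ± 11.6 CPM in Space (SD, n = 3). The smallest unadjusted p values belonged to Src, a membrane-linked tyrosine kinase, with a log2 fold change of -0.073 (SE 0.061), and Pik3cb, a catalytic subunit of PI3 kinase, with 0.068 (SE 0.075).

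Retinoic acid receptors are nuclear receptors that bind DNA together with RXR partners. Rara (ENSMUSG00000037992, chromosome 11, 98927818 to 98974942) had 63.3, 72.0 and 76.5 CPM in Ground and 83.5, 73.3 and 61.0 CPM in Space. Rarg (ENSMUSG00000001288, chromosome 15, 102234938 to 102257517) had 84.1, 86.9 and 117 CPM in Ground and 120.3, 84.8 and 82.9 CPM in Space. Both receptors were highest in Space-1 and then in Ground-3, and in both genes the range of one group lay across that of the other. The difference between group means was small for Rara, with 70.6 ± 6.70 CPM in Ground and 72.6 ± 11.3 CPM in Space (SD, n = 3), which is 0.041 on the log2 scale (SE 0.12). For Rarg the means were 96.1 ± 18.4 and 96.0 ± 21.1 CPM, a log2 fold change of -0.00091 (SE 0.18), with a 95% interval of the ratio from 0.753 to 1.33.

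Within a library, the ratio of Rarg to Rara counts does not depend on library scaling. It was 1.33, 1.21 and 1.53 in Ground and 1.44, 1.157 and 1.36 in Space. The highest ratios were again in Ground-3 and Space-1, which means that Rarg stood higher there relative to Rara. The test between groups was not passed (2-sided exact permutation p = 0.8, where 0.1 is the smallest possible, and 0.8 adjusted over 4 ratios), which was chosen after the values had been seen, as were the 3 ratios below.

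Around the receptors, 28 genes of retinoic acid synthesis, breakdown, transport and response were listed, and 24 had enough reads. None of the 24 passed the test, 11 being higher and 13 lower in Space, and their median log2 fold change was -0.018. Rarb, the remaining receptor of the family, failed the filter with 43 counts over all libraries. Ncoa3, a coactivator of nuclear receptors, had 196 ± 22.6 CPM in Ground and 200.3 ± 7.38 CPM in Space (SD, n = 3). Stra8, a gene induced by retinoic acid at the start of differentiation and again at meiotic entry, had 103 (Ground-1), 104 (Ground-2) and 88.0 (Ground-3) CPM and 92.2 (Space-1), 97.4 (Space-2) and 100.5 (Space-3) CPM. Stra8 was therefore lowest in the libraries where Rara and Rarg were highest, with a range of 1.18-fold over all 6 libraries, and it did not pass the test (log2 fold change -0.025, SE 0.079). The list as a whole went both ways. Ground-3 and Space-1 were the 2 lowest libraries in 7 of the 24 genes and the 2 highest in 7 (23.5% of all tested genes in either case). The smallest unadjusted p values of the list were those of Crabp1, a retinoic acid binding protein (log2 fold change -0.21, SE 0.15), and Aldh1a1, a retinaldehyde dehydrogenase that makes retinoic acid (-0.33, SE 0.33), and neither passed.

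SOHLH1 and SOHLH2 are germ cell basic helix-loop-helix factors that act as partners in spermatogonial differentiation. Sohlh1 and Sohlh2, and Rarg, have windows before their transcription start that differ in letters bound by such factors. The windows were chosen after the values had been seen, Sohlh2 and Rarg being highest in Space-1 and Ground-3 and Sohlh1 lowest there. Any part of the letters in that pattern was not tested. The 250 bases before the RefSeq start (GRCm38.p6) are printed 5′ to 3′ on the strand of the gene, with capitals for CANNTG (E-box, the letters bound by helix-loop-helix factors), AGGTCA (a half-site of nuclear receptors, either strand) and ACANTGT (letters in the core of the DMRT1 motif, either strand). The windows lie at chr2:25847249-25847498 on the minus strand for Sohlh1, chr3:55181794-55182043 on the plus strand for Sohlh2 and chr15:102257523-102257772 on the minus strand for Rarg.
Sohlh1: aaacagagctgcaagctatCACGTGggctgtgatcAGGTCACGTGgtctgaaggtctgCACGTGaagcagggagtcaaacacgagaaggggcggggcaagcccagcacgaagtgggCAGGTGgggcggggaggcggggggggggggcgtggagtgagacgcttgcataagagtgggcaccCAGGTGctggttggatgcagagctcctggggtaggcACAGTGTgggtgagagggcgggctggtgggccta
Sohlh2: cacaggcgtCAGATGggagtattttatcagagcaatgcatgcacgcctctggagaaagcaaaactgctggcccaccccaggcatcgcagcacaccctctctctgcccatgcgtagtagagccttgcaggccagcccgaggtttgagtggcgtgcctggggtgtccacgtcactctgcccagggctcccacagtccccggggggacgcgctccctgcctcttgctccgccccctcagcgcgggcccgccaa
Rarg: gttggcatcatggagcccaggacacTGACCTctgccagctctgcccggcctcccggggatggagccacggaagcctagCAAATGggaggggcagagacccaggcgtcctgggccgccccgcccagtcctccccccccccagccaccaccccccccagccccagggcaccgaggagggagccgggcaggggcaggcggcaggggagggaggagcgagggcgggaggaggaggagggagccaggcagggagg

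The Sohlh1 window held 5 E-boxes, 3 of them with the letters CACGTG, beginning at positions -231, -211 and -192 relative to the start, and 2 with the letters CAGGTG, at -134 and -70. A half-site began at -215 and shared letters with the second E-box, and a match to ACANTGT began at -34. Sohlh2 held 1 E-box and Rarg 1 E-box and 1 half-site. Among 32851 RefSeq promoter windows of the same length, 66.2% held at least 1 E-box, 1.15% held 5 or more, 14.02% held a half-site and 6.47% held ACANTGT. Of the other regulators matched in that table, Dmrtb1 had 2 E-boxes, Neurog3 and Upp1 had 1 each, and Kit and Rara had 0, with neither other motif in any of them. Rara had the same 2 highest libraries as Rarg, and Kit the same 2 lowest as Sohlh1. Either order was found in 23.5% of all tested genes, and a part of the letters in it was not tested. These are matches of letters in 1 window for each gene, with the start nearest the annotated gene start used where RefSeq gives several. For Rara that window, chr11:98937446-98937695, lies inside the annotated gene, which begins at 98927818.

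Sohlh1 (ENSMUSG00000059625, chromosome 2, 25842995 to 25847248) was the steadiest of the 9 regulators. Its values were 147, 156 and 144 CPM in Ground and 134, 158 and 146 CPM in Space, a range of 1.18-fold from the lowest library, Space-1, to the highest, Space-2. The group means of 149 ± 6.26 and 146 ± 11.9 CPM (SD, n = 3) differed by -0.030 on the log2 scale (SE 0.072), and the 95% interval of the ratio, 0.872 to 1.10, was the narrowest of the 9.

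Sohlh2 (ENSMUSG00000027794, chromosome 3, 55182028 to 55209957) ranged 1.38-fold over the libraries. It had 243, 255 and 318 CPM in Ground and 336, 247 and 252 CPM in Space, so that Space-1 and Ground-3 lay above the other 4 libraries, which lay between 243 and 255 CPM. Group means were 272 ± 40.0 and 278 ± 50.1 CPM (SD, n = 3; log2 fold change 0.034, SE 0.14). The ratio of Sohlh2 to Sohlh1 counts was 1.65, 1.63 and 2.199 in Ground and 2.50, 1.56 and 1.72 in Space. The partners were thus closest to the same proportion in 4 libraries and shifted toward Sohlh2 in Ground-3 and Space-1, and the groups overlapped (2-sided exact permutation p = 0.8, adjusted 0.8).

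Neurog3, a helix-loop-helix factor known from progenitor spermatogonia that still belong to the undifferentiated pool, was the lowest of the 9. Neurog3 (ENSMUSG00000044312, chromosome 10, 62133090 to 62134763) had 64, 28 and 53 counts in Ground and 49, 46 and 80 counts in Space, or 2.63, 1.49 and 2.32 CPM and 2.02, 2.45 and 3.20 CPM. The lowest library was Ground-2 and the highest Space-3, and Ground-1 lay above Space-1 and Space-2. The log2 fold change of 0.24 was the largest of the 9 and smaller than its SE of 0.29 (edgeR adjusted p = 0.9999), and the 95% interval of the ratio, 0.740 to 1.89, was the widest. The spread over the 6 libraries was 24.5% of the mean, of which counting alone would give 14.4%. Exons of Neurog3 overlap those of Fam241b on the opposite strand over 273 bases, and whether reads were counted by strand is not stated, so reads of the pair may not be told apart. The same limit holds for Rarb, Ncoa3, Ccnd2, Sycp3, Gfra1, Id4, Nanos2, Fn1 and Col5a1 among the list genes named here.

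DMRT1 and DMRTB1 share the DM domain, a zinc-binding DNA-binding domain. DMRT1 holds back the response to retinoic acid and meiotic entry in spermatogonia, and DMRTB1 acts as differentiating spermatogonia approach meiosis. Dmrt1 (ENSMUSG00000024837, chromosome 19, 25505618 to 25604329) had 358, 467 and 582 CPM in Ground and 589, 452 and 359.7 CPM in Space. Each group held a low, a middle and a high library, the low one being Ground-1 and Space-3, the middle one being Ground-2 and Space-2 and the high one Ground-3 and Space-1. Replicate numbers carry no order, and the group means were almost equal at 469 ± 112 and 467 ± 116 CPM (SD, n = 3; log2 fold change -0.0056, SE 0.21). The 95% interval of the ratio, from 0.709 to 1.40, stands beside a coefficient of variation of 21.7% over the libraries, where counting alone would give 1.003%.

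Dmrtb1 (ENSMUSG00000028610, chromosome 4, 107676290 to 107684230) had 39.7, 24.9 and 33.4 CPM in Ground and 38.1, 30.7 and 39.95 CPM in Space. Its lowest libraries were Ground-2 and Space-2, as they were for 10.5% of all tested genes. These libraries also had the highest mitochondrial shares, 11.5% and 7.12%, and the part of that share in the values of Dmrtb1 was not tested. The means were 32.7 ± 7.46 and 36.3 ± 4.88 CPM (SD, n = 3; log2 fold change 0.15, SE 0.17). Per library, Dmrt1 had 9.02, 18.8 and 17.4 counts for each Dmrtb1 count in Ground and 15.5, 14.7 and 9.002 in Space (2-sided exact permutation p = 0.5, adjusted 0.8). Set against Kit, Dmrt1 had 5.49, 6.81 and 11.1 counts for each Kit count in Ground and 10.6, 6.38 and 5.52 in Space (exact permutation p = 0.8, adjusted 0.8). The ratio of Dmrt1 to Kit varied 2.02-fold over the libraries, with its highest values in Ground-3 and Space-1.

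**Figure D2:**
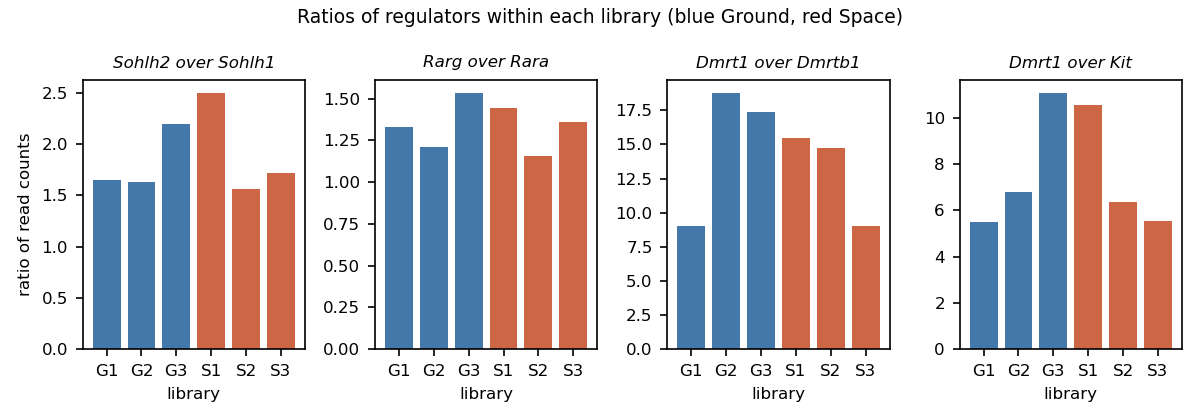
Ratio of read counts of 2 regulators on the y axis, from 0, in each library on the x axis (G1 to G3 Ground in blue, S1 to S3 Space in red; each bar is 1 library). Sohlh2 over Sohlh1, Rarg over Rara and Dmrt1 over Kit are highest in G3 and S1, and Dmrt1 over Dmrtb1 is lowest in G1 and S3, at 9.02 and 9.002.

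Upp1, which encodes uridine phosphorylase, an enzyme of pyrimidine salvage, was weakly expressed. Upp1 (ENSMUSG00000020407, chromosome 11, 9118103 to 9136170) had 6.46, 9.42 and 9.47 CPM in Ground and 8.73, 8.42 and 6.76 CPM in Space, on 157 to 216 counts for each library. Ground-1 and Space-3 were the low libraries, as they were for Dmrt1 and for 19.7% of all tested genes. The log2 fold change was -0.084 (SE 0.20), on means of 8.45 ± 1.72 and 7.97 ± 1.06 CPM (SD, n = 3).

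Over the 9 regulators, 5 log2 fold changes were above 0 and 4 below, with a median of 0.034. The intervals of all 9 included no change, and their outer bounds lay at 0.690-fold for Upp1 and 1.89-fold for Neurog3. None of the 9 had an unadjusted p under 0.05, which 0.609% of tested genes had (0.159% higher and 0.45% lower in Space). The count was also 0 of 9 with DESeq2 and with limma-voom, where 45 and 88 of all tested genes had such a p and 0 passed after adjustment. The 95% intervals show that differences beyond 1.5-fold were outside the range of 8 regulators, and that a difference of that size lay within the interval of Neurog3.

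**Figure D3:**
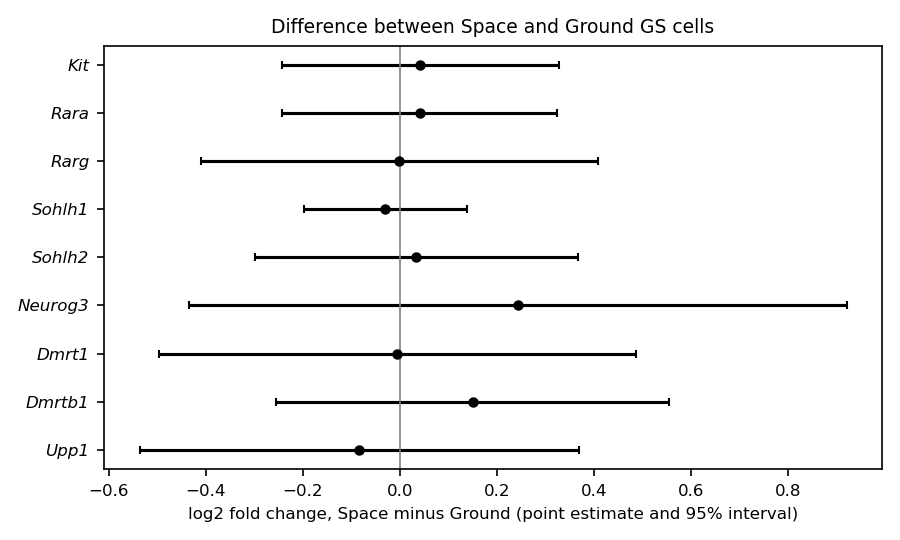
Log2 fold change between Space and Ground (x axis, Space minus Ground, points) with its 95% interval (bars) for the 9 regulators (y axis), from edgeR with n = 3 in each group. All bars cross 0, and the bar of Neurog3 reaches from -0.44 to 0.92.

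To compare levels between genes, CPM were divided by the exon length of each gene in kilobases. Dmrt1 had the highest level with 180.4 ± 39.2 CPM per kilobase (SD, n = 6), above 99.2% of tested genes. Sohlh2 with 116 ± 17.2 and Sohlh1 with 115 ± 6.71 followed, above 98.4% and 98.3% of tested genes, and these neighbours overlapped and changed order between libraries, Sohlh2 being higher in 2 of 6. The range of Sohlh2 also overlapped that of Dmrt1, although Dmrt1 was higher in 6 of 6 libraries. None of the 3 overlapped with Rarg, which followed at 22.5 ± 4.15 CPM per kilobase. Below Rarg stood Dmrtb1 at 16.6 ± 2.87 and Rara at 16.4 ± 1.92, which overlapped. The lower places were held by Kit at 7.08 ± 0.819, Upp1 at 4.19 ± 0.666 and Neurog3 at 1.41 ± 0.344 CPM per kilobase, with no overlap between neighbours. Kit stood above 56.8% of tested genes and Neurog3 above 27.9%. With the longest transcript in place of all exons as length, Kit came to 12.0 CPM per kilobase, and Rara at 21.2 moved above Dmrtb1 at 18.5.

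**Figure D4:**
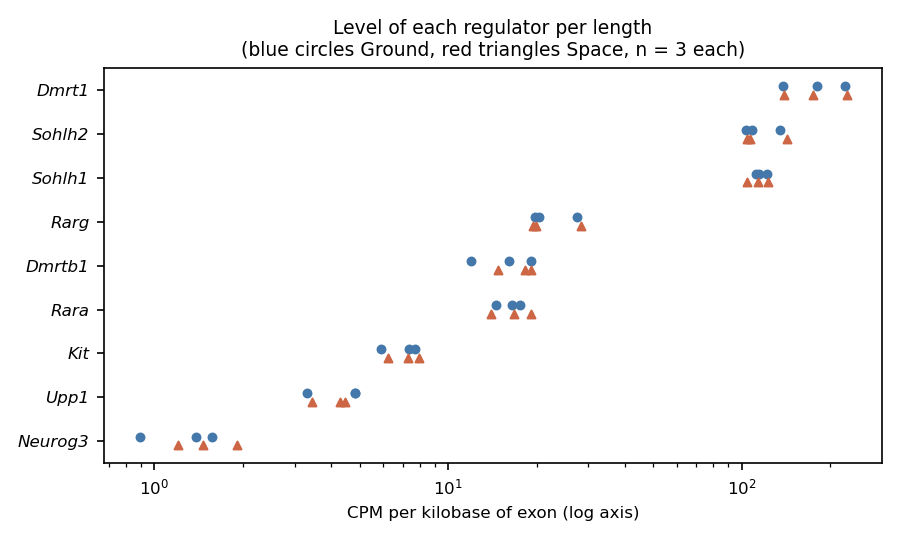
CPM per kilobase of exon on a log x axis for the 9 regulators on the y axis, in order of their means (blue circles Ground, red triangles Space, 1 point for each library). Dmrt1, Sohlh2 and Sohlh1 lie above 100, and Neurog3 lies between 0.891 and 1.91.

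The range over the libraries was above the median of all tested genes for 8 of the 9 regulators, and the highest stood in the 84.5th percentile. The range from the lowest to the highest library was 1.64-fold for Dmrt1 (in the 72.9th percentile of ranges over tested genes), 1.61-fold for Dmrtb1 (71.2) and 2.15-fold for Neurog3 (84.5), the last on few counts. At the other end, Sohlh1 stood in the 27.5th percentile. The observed coefficient of variation exceeded that of counting alone by a factor of 21.7 for Dmrt1, 11.4 for Sohlh2 and 8.33 for Rarg, and by a factor between 3.34 and 4.66 for Sohlh1, Kit, Rara and Dmrtb1. For Upp1 and Neurog3 the factors were 2.13 and 1.70, the lowest of the 9.

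Over the 6 libraries, the genes whose centred log2 CPM lay closest to Dmrt1 were Phgdh, the first enzyme of serine synthesis, Cited2, a transcriptional coregulator, and Ankrd6. The root mean square difference from Dmrt1 was 0.018, 0.026 and 0.031 on the log2 scale, beside a spread of 0.29 of Dmrt1 about its own mean. Phgdh had 131, 173 and 215 CPM in Ground and 213, 166 and 129 CPM in Space, which puts the libraries in the levels described for Dmrt1. This likeness follows from choosing the closest of all tested genes. For Neurog3 the closest genes were Gm41693, Bco2 and Gm17210, at differences of 0.066, 0.079 and 0.080, but these rested on as few as 5 to 23 counts in a library.

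Another 20 genes of differentiating spermatogonia were all tested and 0 passed, with 7 higher and 13 lower in Space and a median log2 fold change of -0.025. The most abundant were Uhrf1, a cofactor of maintenance DNA methylation, with 697 ± 61.7 CPM in Ground and 695 ± 63.7 CPM in Space, and Ccnd2, cyclin D2, with 568 ± 150.4 and 576 ± 159 CPM (SD, n = 3). Ccnd2 had its lowest values, 447 CPM in Ground-3 and 445 CPM in Space-1, in the libraries where Dmrt1 was highest. These were the 2 lowest libraries in 5 of the 20 genes and the 2 highest in 2 (23.5% of all tested genes in either case). Sycp3, a protein of the meiotic chromosome axis, had a log2 fold change of -0.13 (SE 0.10), and Ddit4l, an inhibitor of mTOR signalling, one of -0.54 (SE 0.40) at under 1 CPM in every library.

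Genes of undifferentiated spermatogonia were compared because the regulators act on the exit from that state. All 20 were tested, 0 passed, and the median log2 fold change was 0.040, with 14 higher and 6 lower in Space. Ground-3 and Space-1 were the 2 lowest libraries in 10 of the 20 and the 2 highest in 4 (23.5% of all tested genes in either case). Gfra1, the GDNF co-receptor, had 100.4 CPM in Ground-3 and 101 CPM in Space-1 against 141 to 149 CPM in the other libraries. The widest range was that of Bcl6b, a GDNF-responsive transcription factor chosen here after its values were seen, with 364, 222 and 59.1 CPM in Ground and 57.6, 218 and 371 CPM in Space. Bcl6b thus ordered the libraries opposite to Dmrt1, with the low, middle and high levels exchanged. Nanos2 and Sall1, also chosen after their values were seen, belonged to the 4 genes highest in Ground-3 and Space-1. In these libraries Nanos2 had 12.1 and 11.4 CPM against 4.78 to 6.39 CPM in the others. Sall1 had 166 and 178 CPM there against 73.7 to 87.2 CPM. All other genes of the list had a narrower range than Bcl6b. Zbtb16, a zinc finger repressor that maintains spermatogonial stem cells, had 330.1 ± 25.5 CPM in Ground and 356 ± 18.1 CPM in Space (log2 fold change 0.11, SE 0.072), Ret, the GDNF receptor kinase, had 417 ± 27.3 and 421 ± 32.3 CPM, and Id4 had 26.9 ± 1.39 and 24.5 ± 1.75 CPM (SD, n = 3; log2 fold change -0.14, SE 0.091).

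**Figure D5:**
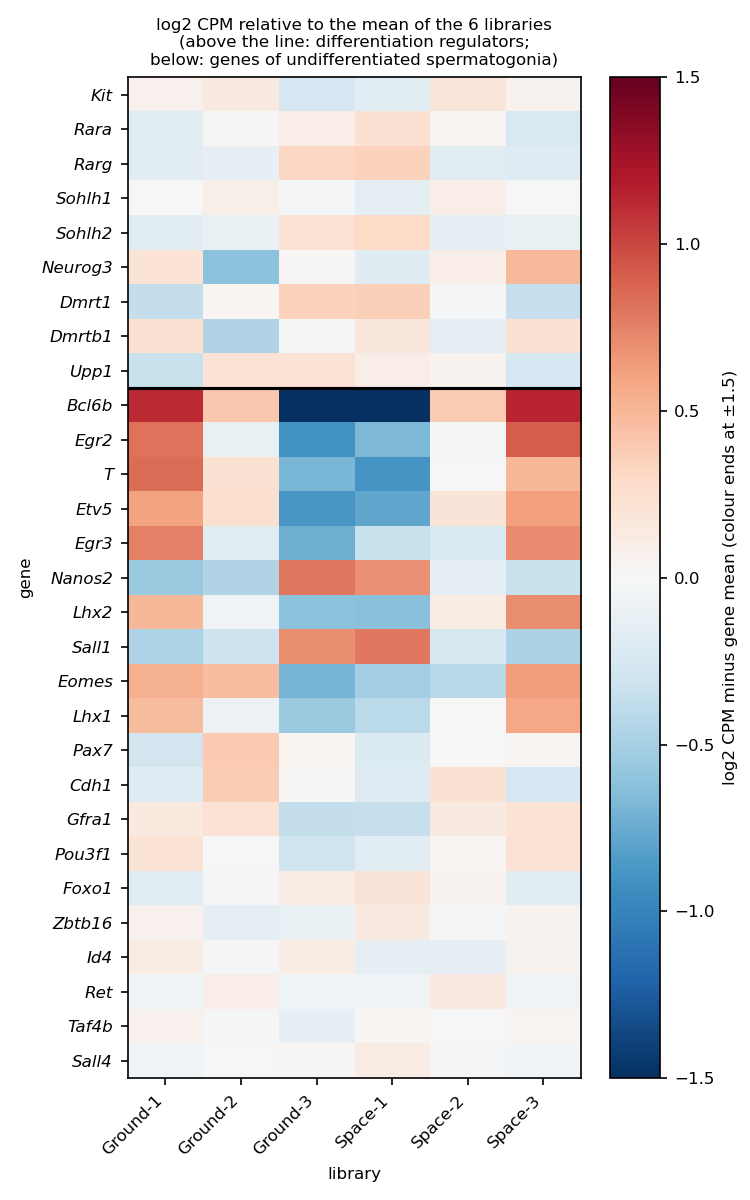
Log2 CPM relative to the mean of the 6 libraries (colour, red above and blue below, ends at ±1.5) for the 9 regulators above the black line and the 20 genes of undifferentiated spermatogonia below it (rows), in each library (columns). Colours of the regulators are pale beside those of Bcl6b, which falls to 59.1 and 57.6 CPM in Ground-3 and Space-1.

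The library pattern of the regulators was set beside markers of other cells. Summed fibroblast markers were at 1306, 1286 and 1300 CPM in the Ground libraries, while Dmrt1 was at 358, 467 and 582 CPM in the same libraries. In Space the sum was 1030, 1295 and 1175 CPM, with the lowest sum in Space-1, where Dmrt1, Sohlh2, Rara and Rarg were highest. Fn1 and Col5a1, the most abundant of these markers, had 376 to 464 and 231 to 307 CPM and weigh most in the sum. Ground-3 and Space-1 were the 2 lowest libraries in 8 of the 24 markers and the 2 highest in 1 (23.5% of all tested genes in either case). The part of feeder cells in the pattern was not tested. Of 8 Sertoli cell markers 4 passed the filter, with summed levels of 24.5 to 27.8 CPM, Fshr at 0 counts and Amh under 1 CPM in every library. Of 8 macrophage and endothelial markers 6 passed, at 26.2 to 44.5 CPM in sum, and 2 of 6 round spermatid markers passed, at 3.94 to 6.09 CPM. The sum of the macrophage and endothelial markers was highest in Ground-1 and Space-3, where Dmrt1 was lowest, and the part of these cells in the pattern was not tested. None of the genes in these lists passed the test between Space and Ground.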

How the data were processed

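Poly(A) RNA of 6 samples was analysed. The authors deposited 1 table of raw read counts per gene, with 1 column for each library and no pooling. Per the labels and methods, adapters were removed with cutadapt and HISAT2 2.2.1 aligned the reads to mm10 with the GENCODE M21 annotation. The submitters' processing notes also list HTSeq 2.0.2, without its role or strand setting. Labels and methods differ in library kit, sequencer and read layout. Reads shared between genes may have been dropped or split, which is not given in the sources used here.

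Genes were kept by filterByExpr (15104 of 32285), libraries were scaled by TMM and tested with edgeR 4.0.16 in R 4.3.3 (2-sided quasi-likelihood F test, Benjamini-Hochberg over all tested genes, threshold 0.05, no replicate block). The SE is the log2 fold change divided by the root of F, and its 95% interval uses the t distribution of that fit. Log2 CPM used a prior count of 2. Lengths and positions came from GENCODE M21, which held 32235 of the identifiers. Promoter windows came from RefSeq (GRCm38.p6), where 8 of 9 regulators matched. Ratios were compared by exact permutation over libraries. The procedure was tested on simulated data.

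The 9 genes, the 11 other lists and the tests were chosen with earlier results of these data known. Named were all 9 genes, the 2 most abundant genes and the 2 with the smallest p of each list, Stra8, Kitl, Gfra1, Zbtb16, Ddx4, Dazl, and the 3 genes closest to the 2 regulators with the widest range. Some genes this rule selects are given only in counts or are not reported here. Alternatives were RLE, total counts, germ cell genes as library size, other filters, DESeq2 1.42.0, limma-voom 3.58.1, a replicate block, no mitochondrial genes, another length and leaving out libraries.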

Additional observations from a re-analysis of the deposited data

How the results depend on the processing

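The counts of 0 regulators, 0 list genes and 0 genes past the threshold were unchanged in all alternatives run, where 45 genes (DESeq2) to 192 genes (no filter) had an unadjusted p under 0.05 and none was a regulator. With the replicate block 0 regulators passed, and 63 genes had an unadjusted p under 0.05. The numbers did not pair the libraries, since the deviations of same-numbered libraries correlated at -0.54, 0.33 and -0.61, and 1 of 3 Ground libraries was best matched by its own number. Ground-3 and Space-1 were the 2 highest libraries in 23.5% of tested genes, Ground-1 and Space-3 in 20.0% and Ground-2 and Space-2 in 10.1%. Such pairs were seen only in these data, and no block for them was run. Variation that they share therefore stays in the spread behind the p-values and intervals. The number of regulators with groups that do not overlap was 0 to 1 without one library, the 1 being Upp1 without Ground-1. With fewer libraries in a group such separation arises more readily, and the share of all tested genes in that setting is not given here. Signs near 0 reversed, and no reversed value passed. Rarg was 0.0027 with RLE, 0.035 with total counts, 5.36e-06 with no filter, 0.0024 with DESeq2 and 0.0016 without mitochondrial genes. Total counts, which moved the median of all genes to 0.033, gave Sohlh1 0.0057 and Dmrt1 0.032. Without one library the log2 fold change ran from -0.21 to 0.19 for Dmrt1, -0.20 to 0.17 for Rarg, -0.13 to 0.17 for Sohlh2, -0.074 to 0.15 for Rara, -0.062 to 0.13 for Kit, -0.089 to 0.027 for Sohlh1, -0.011 to 0.31 for Dmrtb1 and -0.25 to 0.024 for Upp1, and Neurog3 stayed above 0, from 0.043 to 0.41. Without Ground-3 and Space-1 together, chosen after the data were seen, Sohlh1 was 0.0067 and Rara -0.0087. With few libraries in a group, these values rest on the spread of the remaining ones.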
